A study of Mus musculus with 12 samples.

Results

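The α- and β-crystallin genes measured here were 8 of the 45859 genes in the tables, taken as the rows whose gene symbol was Cryaa, Cryab, Cryba1, Cryba2, Cryba4, Crybb1, Crybb2 or Crybb3. RNA came from the lens capsule with its attached lens cells (LCs), left in place when the fiber cells were removed in a mouse model of cataract surgery. WT LCs were from 2 month old C57BL/6 mice and β8ITG-cKO LCs from 2 month old mice of a mixed C57BL/6 and 129S1/Sv strain, in which MLR10-Cre, active in all lens cells, deleted a floxed part of Itgb8, the gene of the β8 integrin subunit. Both genotypes were sampled at 0 h and 24 h post cataract surgery (PCS), with 3 libraries per condition and 12 in all, each pooling several capsules. Since the strain differed with the genotype, an effect of the one cannot be told apart from an effect of the other.

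Crystallins are the abundant soluble proteins that give the lens its refractive power. The α-crystallins, αA (Cryaa) and αB (Cryab), are small heat shock proteins that hold unfolding proteins in solution, and Cryab is also made in many tissues outside the lens. The β-crystallins share a βγ-crystallin fold with the γ-crystallins and assemble as acidic (Cryba) and basic (Crybb) subunits. Lens epithelial cells make α-crystallins already, while β- and γ-crystallins accumulate above all as these cells become fiber cells.

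The values are FPKM, fragments per kilobase of transcript scaled to the mapped fragments of the library, so that levels can be compared between genes. All 8 genes were tested in every comparison, and 95 of 96 values were above 0. The exception was Cryaa, listed at 0 FPKM in WT 0 h replicate 2 beside 28167 and 24296 FPKM in its sister libraries. Cuffdiff's deposited group value for Cryaa in WT at 0 h was 46169.0 or 48307.6 FPKM, depending on the table, and 21262.4 FPKM at 24 h in the table with the latter. These group values lay above the library means in every condition, as with 48502.5 against 27924 FPKM in β8ITG-cKO LCs at 0 h, and enter no comparison here. The 0 was treated as a missing value, so Cryaa at 0 h in WT rests on 2 libraries. Taken as deposited, the same 0 turned the WT change of Cryaa to 4.03 on the log2 scale (adjusted p = 0.413 by limma). Summed FPKM ran from 446531 to 740140 per library, and the relative depths read from the steps between low FPKM values ran from 0.865 to 1.09. Counts were not analysed here, which leaves counting error without an estimate, and the 3 libraries of a condition are biological replicates by the study's methods.

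The genes lie on 5 chromosomes of GRCm38, and 4 of them lie on chromosome 5. Cryba4 (chr5:112246493-112252518, minus strand) and Crybb1 (chr5:112255815-112269585, plus strand) are arranged head to head, with 3296 bases between their starts. In RefSeq their spans overlap (Cryba4 to 112263625, Crybb1 from 112254563), and the deposited values give both the same locus. Crybb2 (chr5:113058258-113070117) and Crybb3 (chr5:113075839-113081584) follow each other on the minus strand, 5721 bases apart. The others are Cryaa (chr17:31677807-31681733, plus strand), Cryab (chr9:50751325-50756636, plus strand), Cryba1 (chr11:77718615-77725283, minus strand) and Cryba2 (chr1:74889934-74893143, minus strand). Cryab overlaps the oppositely oriented small heat shock gene Hspb2 by 1030 bases. The kit keeps the strand, but the counting setting is not given in the sources used here. Reads of Cryab and Hspb2, or of Cryba4 and Crybb1, may therefore not be fully separated. The coding transcripts of the 8 genes shared no exact run over 22 bases in any of 28 pairs.

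RefSeq promoter windows (GRCm38.p6, 250 bases before to 50 after the start site) were matched for 7 of the 8 genes. Cryab had no window, so its promoter was not searched for any of the motifs. The motif TGCTGA, the core of the site bound by Maf proteins, was searched on both strands because large Maf proteins are known activators of crystallin genes. It was found in 6 of the 7 windows, all except that of Crybb2, while 19.49% of 32817 promoter windows hold it. The Cryba4 window held it 3 times, and 2.36% of all windows hold it at least 2 times. TATAAA was found in 3 of the 7 windows, those of Cryba1, Cryba2 and Crybb1, against 13.62% of all windows. It begins at base -23 in Cryba1, -30 in Crybb1 and -3 in Cryba2, where the match runs across the start site. The heat shock element core GAANNTTC was found in 0 of the 7, against 7.86% of all windows. With so few windows a count of 0 is not set apart from that share, and Cryab is not covered. These matches describe the sequence only. The 250 bases before the start site are printed for 4 genes, 5′ to 3′ on the gene's strand, because Cryba4 and Crybb1 form the head-to-head pair and Cryaa and Cryba1 represent the α and acidic β classes. Capitals mark TGCTGA and TATAAA. The regions are chr5:112252519-112252768 (minus), chr5:112255570-112255819 (plus), chr17:31677681-31677930 (plus) and chr11:77725294-77725543 (minus).
Cryba4: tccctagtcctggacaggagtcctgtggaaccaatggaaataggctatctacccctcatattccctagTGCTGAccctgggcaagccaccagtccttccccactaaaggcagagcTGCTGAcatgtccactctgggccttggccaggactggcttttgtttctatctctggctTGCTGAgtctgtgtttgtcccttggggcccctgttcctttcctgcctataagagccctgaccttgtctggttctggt
Crybb1: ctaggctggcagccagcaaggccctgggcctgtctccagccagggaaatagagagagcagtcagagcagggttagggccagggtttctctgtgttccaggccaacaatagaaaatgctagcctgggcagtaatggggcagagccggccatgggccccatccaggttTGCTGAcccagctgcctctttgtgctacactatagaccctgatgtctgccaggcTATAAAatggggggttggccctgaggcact
Cryaa: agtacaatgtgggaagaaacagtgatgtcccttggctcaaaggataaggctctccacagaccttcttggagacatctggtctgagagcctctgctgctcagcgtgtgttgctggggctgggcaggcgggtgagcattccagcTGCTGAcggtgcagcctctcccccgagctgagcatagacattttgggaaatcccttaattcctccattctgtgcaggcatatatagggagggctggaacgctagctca
Cryba1: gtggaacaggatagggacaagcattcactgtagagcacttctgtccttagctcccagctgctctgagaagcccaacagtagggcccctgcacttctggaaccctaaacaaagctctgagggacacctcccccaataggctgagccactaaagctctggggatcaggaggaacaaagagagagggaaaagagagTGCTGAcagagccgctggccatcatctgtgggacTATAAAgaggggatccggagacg
Counted from the start site, the TGCTGA matches begin at base -182, -135 and -77 in Cryba4, -84 in Crybb1, -108 in Cryaa and -57 in Cryba1.

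The Itgb8 level checks nothing about the deletion, because the FPKM covers all exons of the gene and not the deleted part alone. It was at 7.26, 10.8 and 8.42 FPKM in WT 0 h, 9.08, 8.38 and 9.58 FPKM in WT 24 h, 6.83, 4.58 and 7.31 FPKM in β8ITG-cKO 0 h, and 9.28, 11.8 and 10.3 FPKM in β8ITG-cKO 24 h libraries. The genotypes overlapped at both times, with adjusted p = 0.208 at 0 h and 0.486 at 24 h. The labelled cell type was present in every library: none of 7 lens epithelial markers (Foxe3, Cdh1, Pax6, Gja1, Pdgfra, Krt18, Npnt) was at 0, and their summed level was 410 to 421 FPKM in WT 0 h, 310 to 342 in WT 24 h, 486 to 589 in β8ITG-cKO 0 h and 251 to 294 in β8ITG-cKO 24 h libraries.

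At 0 h PCS the α- and β-crystallins were among the most abundant transcripts of LCs. They held 15.9% and 15.5% of the summed FPKM in the WT 0 h libraries with a Cryaa value, and 12.5%, 12.9% and 12.4% in the β8ITG-cKO 0 h libraries. By 24 h the share was 7.36%, 5.84% and 5.90% in WT, and 4.25%, 4.59% and 3.55% in β8ITG-cKO LCs. Every 24 h library lay below every 0 h library that had a Cryaa value. The share depends on the 10 most abundant other genes, structural RNAs such as Rn7s2, Rn7s1 and Rn7sk, and without them it was 24.5% ± 0.977 (SD, n = 2) and 9.99% ± 1.22 (n = 3) in WT and 21.6% ± 0.271 and 6.90% ± 0.754 (n = 3 each) in β8ITG-cKO LCs at 0 h and 24 h.

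**Figure D1:**
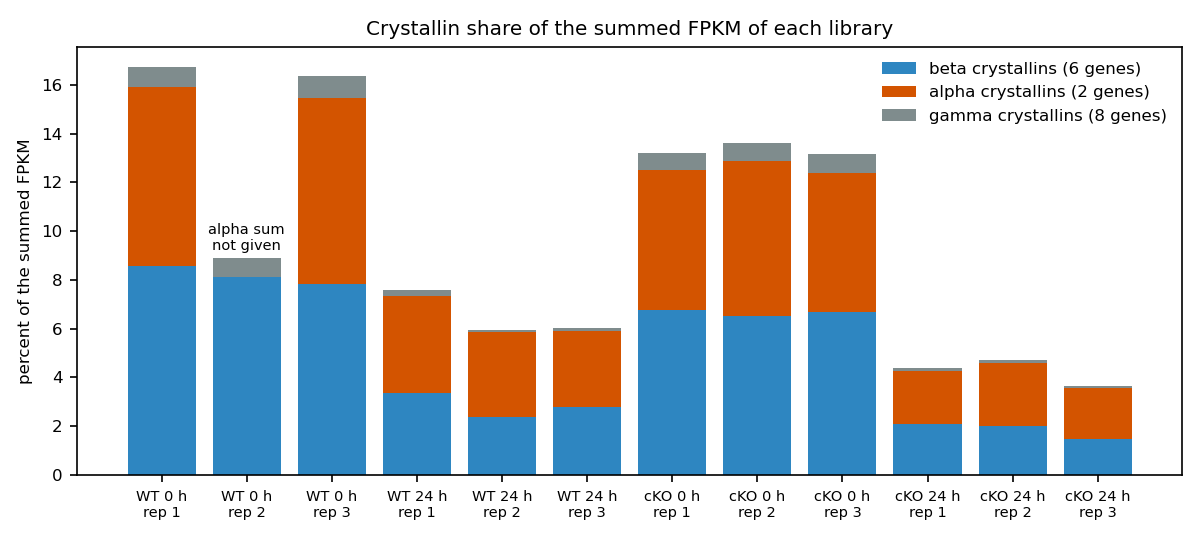
Share of the summed FPKM of each library (y axis, percent) held by the 6 β-, 2 α- and 8 γ-crystallin genes, stacked, for the 12 libraries (x axis). The α sum is not given for WT 0 h replicate 2, whose Cryaa value is missing. The bars of all 24 h libraries are lower than those of complete 0 h libraries, and the γ part is the thinnest throughout.

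Crybb2, the main basic β-crystallin of the adult lens, was the highest of the 8 at 0 h, with mean levels of 31589.6 (WT) and 30830.1 FPKM (β8ITG-cKO). Cryaa followed at 26231 and 27924 FPKM, and the ranges of Crybb2 and Cryaa overlapped in both genotypes. Cryab came next, at 11614 and 13608 FPKM, apart from its neighbours. Cryba2 and Cryba1 followed and overlapped each other in WT, where they had means of 4395 and 4317 FPKM. Crybb3, Cryba4 and Crybb1 were lowest, at 1937, 1286 and 990 FPKM in WT, with Cryba4 and Crybb1 overlapping. At 24 h the order had changed: Cryaa lay above Crybb2 with no overlap in either genotype (14467 against 11679 FPKM in WT, 9054 against 7232 FPKM in β8ITG-cKO). Crybb3, below Cryba1 and Cryba2 at 0 h, overlapped both at 24 h in WT and lay above both in β8ITG-cKO LCs.

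The make-up of the family shifted accordingly. The ratio of summed α to summed β FPKM was 0.919 ± 0.0847 (SD, n = 2) at 0 h and 1.26 ± 0.189 (n = 3) at 24 h in WT, and 0.894 ± 0.0704 at 0 h and 1.24 ± 0.208 at 24 h in β8ITG-cKO LCs (n = 3 each). The ranges of the 2 times did not overlap in either genotype. Crybb3 made up 4.38% ± 0.519 of the β sum at 0 h and 7.14% ± 0.741 at 24 h in WT, and 5.82% ± 1.09 and 10.8% ± 1.47 in β8ITG-cKO LCs. The acidic subunits together fell from 22.5% ± 0.527 to 14.98% ± 3.37 of the β sum in WT and from 25.4% ± 1.87 to 16.5% ± 0.866 in β8ITG-cKO LCs (n = 3 each). These shares were not tested.

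The WT comparison asks how the crystallin mRNAs of LCs stand 1 day after fiber cell removal. Of the 8 genes, 6 were called lower at 24 h, and all except Cryaa and Crybb3 passed. Without a filter on low values 3 were called, Cryba1, Cryba2 and Crybb1. With the replicate number as a block, Cryab and Crybb2 did not pass. A call required an adjusted p of at most 0.05 by limma, a ratio of group means over 2, a difference of means over 2 FPKM, and 2 FPKM or more in the higher group. Across all 15146 genes tested, 3.93% were called lower. The ranges of the times did not overlap for any of the 8, against 15.6% of genes with all 24 h libraries below all 0 h libraries. The median log2 change of the 8 was -1.63, beside 0.16 over all genes tested. With libraries rescaled to the same median FPKM, the all-gene median was -0.05 and that of the 8 was -1.90. In bulk RNA, fewer cells of a type and less RNA per cell cannot be told apart.

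Among the α-crystallins, Cryaa stood at 28167 and 24296 FPKM in the 0 h libraries, against 16101, 13611.5 and 13688 FPKM in the 24 h libraries in WT. The groups did not overlap, but the log2 change of -0.86 (SE 0.48, adjusted p = 0.218) did not pass. Its spread in the fit (SD 0.527 on the log2 scale) was larger than its own (0.142), because the prior spread for genes this abundant was 0.693. With 1 prior spread for all genes, an alternative chosen after the data were seen, the adjusted p was 0.0158, and the ratio of means, 0.552, still missed the 2-fold criterion. Cryab stood at 11800, 13173 and 9870.3 FPKM in the 0 h libraries, against 5174, 4530 and 3957 FPKM in the 24 h libraries. It fell by 1.35 on the log2 scale (SE 0.32, adjusted p = 0.0183), with all 24 h libraries lower. The adjusted p was 0.0517 to 0.0843 without WT 0 h replicate 1 or 2 or WT 24 h replicate 2 or 3, so the call was lost there.

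All 3 acidic β-crystallins were called lower, and Cryba4 had the largest change of the 8. Cryba4 stood at 1311, 1589 and 956 FPKM in the 0 h libraries, against 293, 41.5 and 303 FPKM in the 24 h libraries. It fell by 3.01 on the log2 scale (SE 0.71, adjusted p = 0.0166). WT 24 h replicate 2 stood well below its sisters, and without it Cryba4 fell by 2.07. Its call was lost without WT 0 h replicate 1 (adjusted p = 0.0527) or replicate 2 (0.0546). Cryba1 stood at 4332, 5262 and 3358 FPKM in the 0 h libraries, against 1233, 453 and 994 FPKM in the 24 h libraries. It fell by 2.37 (SE 0.40, adjusted p = 0.00483), again with replicate 2 lowest. Cryba2 stood at 4535, 5005 and 3645 FPKM in the 0 h libraries, against 1483, 872 and 1394 FPKM in the 24 h libraries. It fell by 1.84 (SE 0.30, adjusted p = 0.0041), the smallest change of the acidic subunits.

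The basic β-crystallins spanned a wide range. Crybb1 stood at 969, 1176 and 824.045 FPKM in the 0 h libraries, against 287, 89.3 and 219 FPKM in the 24 h libraries. It fell by 2.45 on the log2 scale (SE 0.41, adjusted p = 0.00447), more than the other basic subunits. Crybb2 stood at 33630.5, 36677 and 24461 FPKM in the 0 h libraries, against 13121, 10009.5 and 11907 FPKM in the 24 h libraries. It fell by 1.42 (SE 0.43, adjusted p = 0.0398), and the adjusted p was 0.0567 or more when any library other than WT 24 h replicate 1 was left out. Crybb3 stood at 1769, 2366 and 1676 FPKM in the 0 h libraries, against 1421, 853 and 1035 FPKM in the 24 h libraries. Its log2 change of -0.83 (SE 0.27, adjusted p = 0.0551) did not pass, and its ratio of means was 0.569. It passed the adjusted p with a filter at a mean of 2 FPKM (0.0414), after rescaling to the same median (0.0176), in 1 fit over 12 libraries (0.0101) and with 1 prior spread for all genes (0.0340). With a library left out its change ran from -1.03 to -0.66, and its adjusted p by limma from 0.0313 to 0.160.

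**Figure D2:**
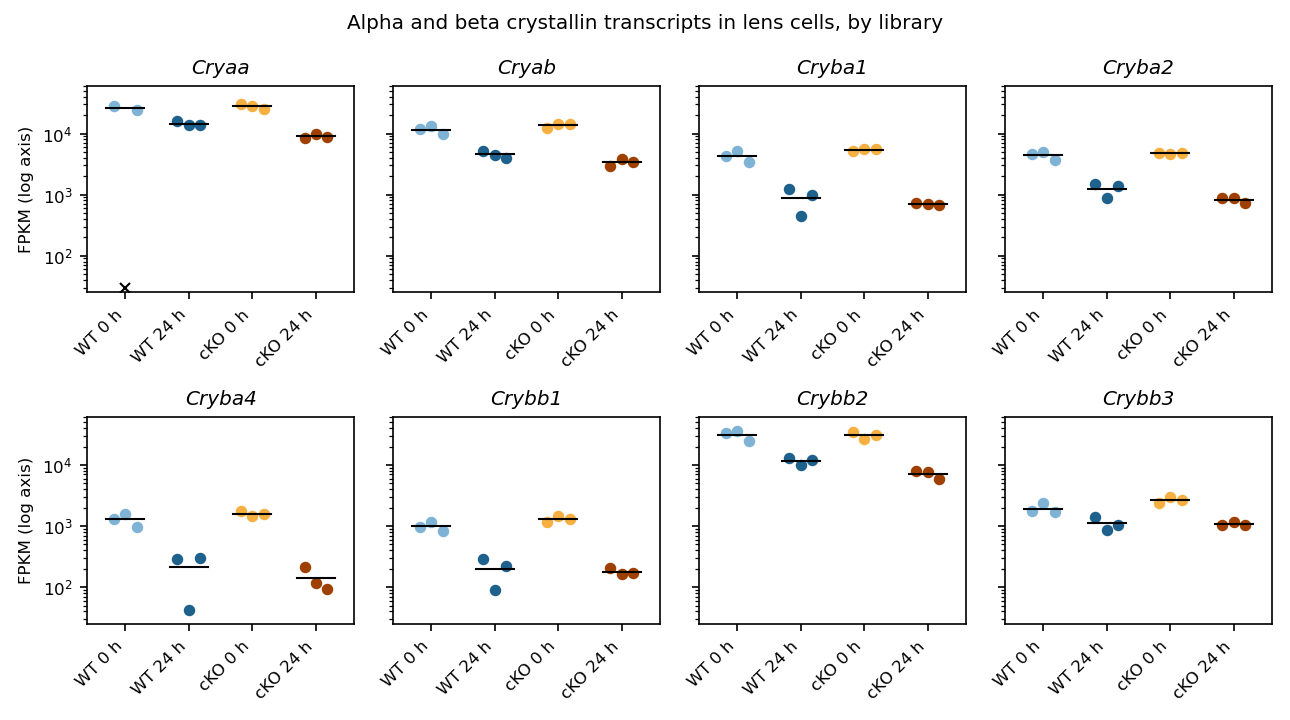
FPKM (y axis, log scale) of each α- and β-crystallin gene in the 12 libraries by condition (x axis, cKO for β8ITG-cKO), with points for libraries and lines for means. A cross marks the missing Cryaa value of WT 0 h replicate 2. All 24 h points lie below all 0 h points of their genotype for each gene, and the low WT 24 h point of Cryba4 is at 41.5 FPKM.

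WT 24 h replicate 2 was below the mean of its sisters for all 8 genes, at 0.139 (Cryba4) to 0.992 (Cryab) of it and at a median of 0.650. Among genes whose sister libraries averaged 2 FPKM or more, the same library was below that average for 12 of 12 other lens fiber genes, with a median of 0.616, and for 3 of 3 γ-crystallins. Lower genes were not compared in this way, and among them Crygf was at 0.15 and Dnase2b at 0.07 FPKM in this library, each listed at 0 in both sisters. Leaving out 1 library at a time gave 3 to 7 called genes of the 8. The count was 3 without WT 0 h replicate 1 or without WT 0 h replicate 2, when Cryba1, Cryba2 and Crybb1 remained, and each of the 8 changes stayed negative in all these fits. WT 0 h replicate 2 also had the most photoreceptor RNA of the WT libraries: 12 photoreceptor markers summed to 1327 FPKM there, against 392 and 162 in its sisters and 85.3 to 158 FPKM at 24 h. The part of photoreceptor RNA in the crystallin values was not tested.

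In β8ITG-cKO LCs all 8 genes were called lower at 24 h, beside 3.78% of 15237 genes tested. The ranges of the times did not overlap for any of the 8, against 14% of all genes. Their median log2 change was -2.31, beside 0.23 over all genes, and after rescaling to the same median -2.61 beside -0.0008. The same 8 calls were made with any library left out, but without a filter on low values 6 were made, and Cryaa (adjusted p = 0.217) and Crybb2 (adjusted p = 0.110) no longer passed. Photoreceptor markers moved the other way between the same libraries: 12 of 12 were called higher at 24 h, beside 11.3% of genes tested, with sums of 385, 206 and 308 FPKM in the 0 h and 1133, 964 and 1134 FPKM in the 24 h libraries, and their part in the crystallin changes was not tested. Of 7 lens epithelial markers 4 (Foxe3, Cdh1, Pdgfra and Npnt) were called lower and 1 (Krt18) higher at 24 h in β8ITG-cKO LCs. In WT 2 (Foxe3 and Npnt) were called lower, beside 3.93% of all genes. Of 5 red blood cell markers 4 were called higher at 24 h in β8ITG-cKO LCs. The part of these cells in the crystallin changes was not tested either. The comparisons over time and between genotypes share libraries, so they are not independent of each other.

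Cryaa stood at 30393, 27768 and 25609 FPKM in the 0 h libraries, against 8385, 9962 and 8816 FPKM in the 24 h libraries in β8ITG-cKO LCs. It fell by 1.63 on the log2 scale (SE 0.28, adjusted p = 0.00261). Cryab, its chaperone partner, stood at 12254, 14324 and 14247 FPKM in the 0 h libraries, against 2967, 3830.2 and 3429 FPKM in the 24 h libraries. It fell by 2.00 (SE 0.23, adjusted p = 0.000346), with no overlap between the times.

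Of the acidic subunits, Cryba4 stood at 1742, 1477 and 1568 FPKM in the 0 h libraries, against 214, 117 and 93.5 FPKM in the 24 h libraries. It fell by 3.57 (SE 0.28, adjusted p = 6.26e-05), the largest change of the 8 in this genotype too. Cryba1 stood at 5113, 5654 and 5651 FPKM in the 0 h libraries, against 718, 707 and 675 FPKM in the 24 h libraries, and fell by 2.96 (SE 0.15, adjusted p = 1.1e-05). Its 24 h libraries stood close together. Cryba2 stood at 4808, 4539 and 4836 FPKM in the 0 h libraries, against 876, 868 and 727 FPKM in the 24 h libraries, and fell by 2.52 (SE 0.16, adjusted p = 2.77e-05).

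Of the basic subunits, Crybb1 stood at 1184, 1442 and 1324 FPKM in the 0 h libraries, against 203, 165 and 172 FPKM in the 24 h libraries. It fell by 2.86 (SE 0.14, adjusted p = 9.15e-06), the most among the basic subunits. Crybb2 stood at 34704, 27050.2 and 30736 FPKM in the 0 h libraries, against 8121, 7702.5 and 5873 FPKM in the 24 h libraries, and fell by 2.098 (SE 0.30, adjusted p = 0.000982). Crybb3 stood at 2408, 3017 and 2647 FPKM in the 0 h libraries, against 1034, 1186 and 1045 FPKM in the 24 h libraries. It fell by 1.30 (SE 0.16, adjusted p = 0.000515), the smallest change of the 8.

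**Figure D3:**
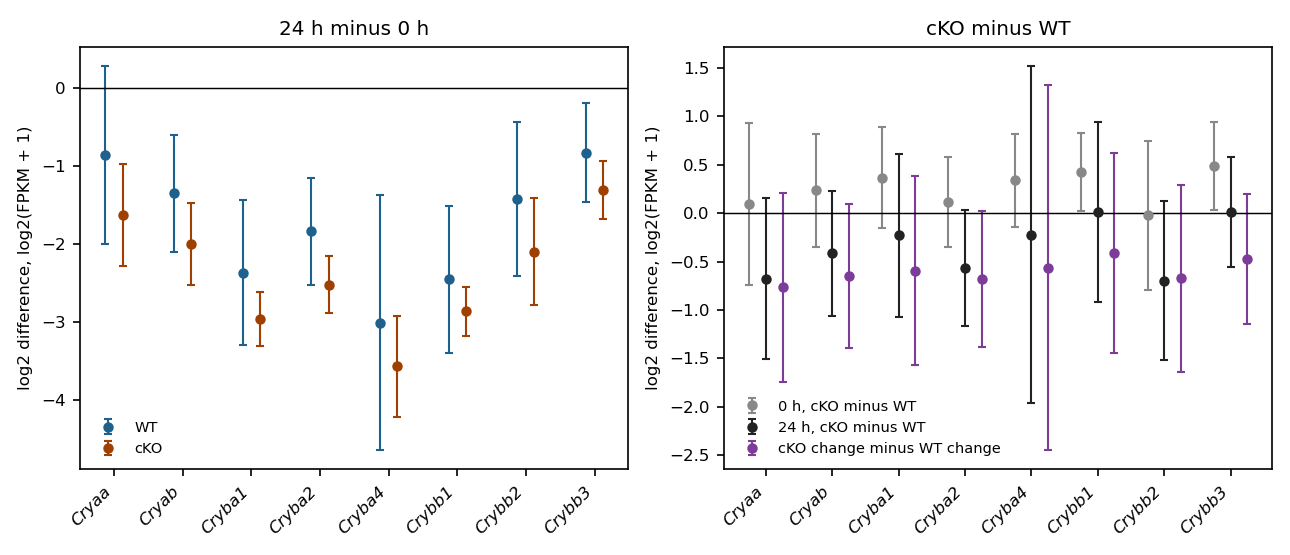
Log2 differences with 95% confidence intervals (y axis) for the 8 genes (x axis), with 24 h minus 0 h in WT and β8ITG-cKO LCs on the left, and on the right β8ITG-cKO minus WT at 0 h, at 24 h and the difference between the changes over time. On the left all points lie below 0, from -0.83 to -3.57. On the right the intervals of the change differences all cross 0.

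At 0 h, none of the 8 genes was called between the genotypes, beside 2.54% of 14708 genes called in either direction. By limma, Crybb1 and Crybb3 reached an unadjusted p under 0.05, as did 3531 of the 14708 genes, so this count is near the background. Crybb3 was 0.48 higher on the log2 scale in β8ITG-cKO LCs (SE 0.20, adjusted p = 0.180) and Crybb1 0.42 higher (SE 0.17, adjusted p = 0.190), both with all β8ITG-cKO libraries above all WT libraries, against 18% of genes without overlap in that direction. The 95% interval for Cryba1 was -0.15 to 0.88 and for Cryab -0.35 to 0.82, so differences within these intervals are not excluded. Crybb2 differed by -0.02 (interval -0.79 to 0.75) and Cryaa, with 2 WT libraries, by 0.09 (interval -0.75 to 0.93).

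At 24 h none of the 8 was called between the genotypes either, beside 3.66% of 15366 genes called in either direction, and none had an unadjusted p under 0.05. Cryaa, Cryab and Crybb2, the most abundant of the 8, had all β8ITG-cKO libraries below all WT libraries, against 9% of genes without overlap in that direction. Crybb2 differed by -0.70 (SE 0.35, adjusted p = 0.323), Cryaa by -0.68 (SE 0.36, adjusted p = 0.345) and Cryab by -0.42 (SE 0.28, adjusted p = 0.453). With 1 prior spread for all genes the adjusted p of Cryaa was 0.0358, while its ratio of means, 0.626, missed the 2-fold criterion. Cryba2 differed by -0.57 (SE 0.26, adjusted p = 0.275), with ranges that touched. Crybb1 and Crybb3 both differed by 0.01, with intervals of -0.92 to 0.94 and -0.56 to 0.58. With a library left out the differences of Cryba1, Cryba4, Crybb1 and Crybb3 took both signs, as from -1.16 to 0.26 for Cryba4. The median difference of the 8 was -0.32, and -0.69 without WT 24 h replicate 2.

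The 24 h changes of the genotypes were compared by the interaction of genotype and time over all 12 libraries. None of the 8 passed at an adjusted p of 0.05, beside 2.56% of 15262 genes that passed with a more negative change in β8ITG-cKO LCs and 6.83% with a more positive one, and none had an unadjusted p under 0.05. All 8 differences were negative, from -0.77 (Cryaa, SE 0.44, adjusted p = 0.327) to -0.41 (Crybb1, SE 0.47, adjusted p = 0.643). Cryba2, at -0.68 (SE 0.32), had the lowest adjusted p, 0.218. With a library left out the differences stayed negative but ranged widely, from -1.50 to -0.08 for Cryba4, -1.03 to -0.30 for Cryba1 and -0.90 to -0.07 for Crybb1, with the lowest adjusted p of the 8 at 0.0527. For these 3 genes the most negative values were those without WT 24 h replicate 2. With 1 prior spread for all genes, Cryaa alone of the 8 passed (adjusted p = 0.0376). A larger fall in β8ITG-cKO LCs is thus not shown for any of the 8 by this test. The 95% interval for Cryab was -1.39 to 0.09.

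Photoreceptor RNA differed between the genotypes at 24 h. All 12 photoreceptor markers were called higher in β8ITG-cKO than in WT LCs, beside 3.37% of genes tested, with sums of 1133, 964 and 1134 against 85.3, 151 and 158 FPKM and no marker at 0. Its part in the genotype differences and in the interaction was not tested. Among the lens epithelial markers, Cdh1 was 0.92 lower on the log2 scale (SE 0.14, adjusted p = 0.00976) in β8ITG-cKO LCs at 24 h. Krt18 was 1.46 higher (SE 0.28, adjusted p = 0.025), while the other 5 did not pass. In the WT 0 h libraries Krt18 was at 3.92, 8.5 and 2.47 FPKM, highest in replicate 2, which also had the highest photoreceptor sum there. The part of photoreceptor RNA in the Krt18 values was not tested. At 0 h the direction of Cdh1 was the opposite, 0.68 higher in β8ITG-cKO LCs (adjusted p = 0.0111), and Foxe3 was 0.89 higher (adjusted p = 0.0269), both with no overlap between the genotypes. Neutrophil markers, led by S100a9, summed to at most 1.41 FPKM in any 0 h library, to 64.4, 45.5 and 48.9 FPKM in WT 24 h and to 23.7, 11.99 and 34.7 FPKM in β8ITG-cKO 24 h libraries, with 1 or 2 of the 6 markers at 0 in each 24 h library. Red blood cell markers, led by Hba-a1 with none of 5 at 0, summed to 68.0 to 153 FPKM in WT 0 h, 6.52 to 15.8 in β8ITG-cKO 0 h, 36.0 to 220 in WT 24 h and 87.4 to 195 in β8ITG-cKO 24 h libraries. Their part in the crystallin values was not tested.

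The γ-crystallins, the other lens crystallin family, were listed for comparison, and all 8 were called lower at 24 h in both genotypes, beside 3.93% of all genes in WT and 3.78% in β8ITG-cKO LCs, with medians of -3.94 in WT and -3.23 in β8ITG-cKO LCs. Crygs, the γ-crystallin of cortical fibers and the most abundant of them, was at 3456, 3910.0 and 2777 FPKM at 0 h and 1054, 513 and 809 FPKM at 24 h in WT, where it fell by 2.14 (SE 0.31, adjusted p = 0.00291). The Cryga to Crygf genes are close copies of each other, so their separate values are uncertain. In all, 13 other lens fiber genes were tested over time, of which 11 were called lower in WT and 12 in β8ITG-cKO LCs, against the same shares of all genes, with medians of -1.59 and -2.08. Mip, the main membrane protein and water channel of fibers, fell by 3.13 (adjusted p = 0.00361) in WT and by 3.25 (adjusted p = 6.23e-05) in β8ITG-cKO LCs. Bfsp2, a subunit of the fiber cell beaded filament, fell by 1.44 (adjusted p = 0.00254) and 1.88 (adjusted p = 9.59e-05) respectively.

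Among 15 transcription factors known to act on crystallin genes, 6 passed the adjusted p lower and 1 higher in WT, with a median of -0.38, while 8.82% and 20.9% of all genes passed lower and higher. In β8ITG-cKO LCs 10 passed lower and 1 higher, with a median of -0.88, beside 10.8% and 35.4%. After rescaling to the same median 12 passed lower in WT and 14 in β8ITG-cKO LCs, with 0 higher in both. On that scale 16% of all genes passed lower and 14.5% higher in WT, and 19.9% lower and 21.2% higher in β8ITG-cKO LCs. Thus Meis1, the factor that passed higher, did so on the deposited scale only. Hsf4, the heat shock factor of the lens, fell by 1.53 (adjusted p = 0.00192) in WT and 2.21 (adjusted p = 0.00011) in β8ITG-cKO LCs. Maf, the large Maf protein of lens fiber differentiation, was at 46.2, 44.7 and 40.6 FPKM at 0 h and 30.2, 22.3 and 24.4 FPKM at 24 h in WT, and at 65.0, 72.3 and 69.5 FPKM and 20.7, 24.6 and 22.4 FPKM in β8ITG-cKO LCs. It fell in both, by 0.76 (adjusted p = 0.00951) and 1.57 (adjusted p = 2.77e-05), and the groups overlapped in neither. Prox1 and Pitx3, homeodomain factors of the lens, fell by 0.89 each in WT and by 1.24 and 1.42 in β8ITG-cKO LCs. Pax6, the eye master regulator, did not pass in either on the deposited scale (adjusted p = 0.266 and 0.051), and its log2 changes were -0.20 and -0.33. After rescaling it was among the 14 factors that passed lower in β8ITG-cKO LCs.

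Of 5 other small heat shock proteins tested, 2 passed lower and 0 higher in WT, and 2 passed lower and 2 higher in β8ITG-cKO LCs. Of all genes, 8.82% passed lower and 20.9% higher in WT, and 10.8% lower and 35.4% higher in β8ITG-cKO LCs. Those lower were Hspb2 and Hspb3 in both genotypes, and Hspb2, which overlaps Cryab, fell by 1.09 (adjusted p = 0.00199) in WT and 1.47 (adjusted p = 0.0007) in β8ITG-cKO LCs. Hspb6 was 1.84 higher at 24 h in β8ITG-cKO LCs (adjusted p = 7.79e-05) and differed by -0.06 (adjusted p = 0.915) in WT. Hspb8 was 0.36 higher in β8ITG-cKO LCs (adjusted p = 0.0445). After rescaling to the same median 1 of the 5 passed higher there, beside 21.2% of all genes. Of 8 large heat shock chaperones, 4 passed higher in WT, beside 20.9% of all genes, and 6 in β8ITG-cKO LCs, beside 35.4%, and none passed lower. Hspd1, the mitochondrial chaperonin, rose by 1.66 (adjusted p = 0.00368) in WT and by 0.95 (adjusted p = 0.000458) in β8ITG-cKO LCs. After rescaling to the same median 2 of the 8 passed higher in WT, beside 14.5% of all genes, and 6 in β8ITG-cKO LCs, beside 21.2%. Without WT 24 h replicate 2, 1 of the 8 passed higher in WT. Of the enzymes that carry a crystallin name, Crym was 2.73 higher at 24 h in β8ITG-cKO LCs (adjusted p = 5.67e-05), at 5.77 to 10.8 FPKM against 0.24 to 0.54, and the difference from its WT change of 0.85 did not pass (adjusted p = 0.069), while Cryz, Cryzl1 and Cryl1 passed in neither genotype. In WT, Crym was at 0.85, 4.39 and 0.24 FPKM at 0 h, highest in replicate 2, which also had the highest photoreceptor sum there, and at 3.02, 2.66 and 3.92 FPKM at 24 h, where photoreceptor sums were low. The part of photoreceptor RNA in the Crym values was not tested. Of the other βγ-crystallin fold genes, Aim1 rose by 1.18 (adjusted p = 0.0152) in WT and 1.20 (adjusted p = 0.00037) in β8ITG-cKO LCs, and Crybg3 fell by 0.93 (adjusted p = 0.00279) in β8ITG-cKO LCs. Its WT change was -0.60 (adjusted p = 0.0549), and the difference between the changes did not pass (adjusted p = 0.503). After rescaling to the same median 0 fold genes passed higher and 1 lower in WT, and 1 higher and 1 lower in β8ITG-cKO LCs. Of the 4 enzymes 1 passed lower and 0 higher in WT, and 2 passed lower and 1 higher in β8ITG-cKO LCs. On that scale 14.5% of all genes passed higher and 16% lower in WT, and 21.2% higher and 19.9% lower in β8ITG-cKO LCs. Without WT 24 h replicate 2, 0 fold genes passed higher in WT, so Aim1 did not pass there.

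**Figure D4:**
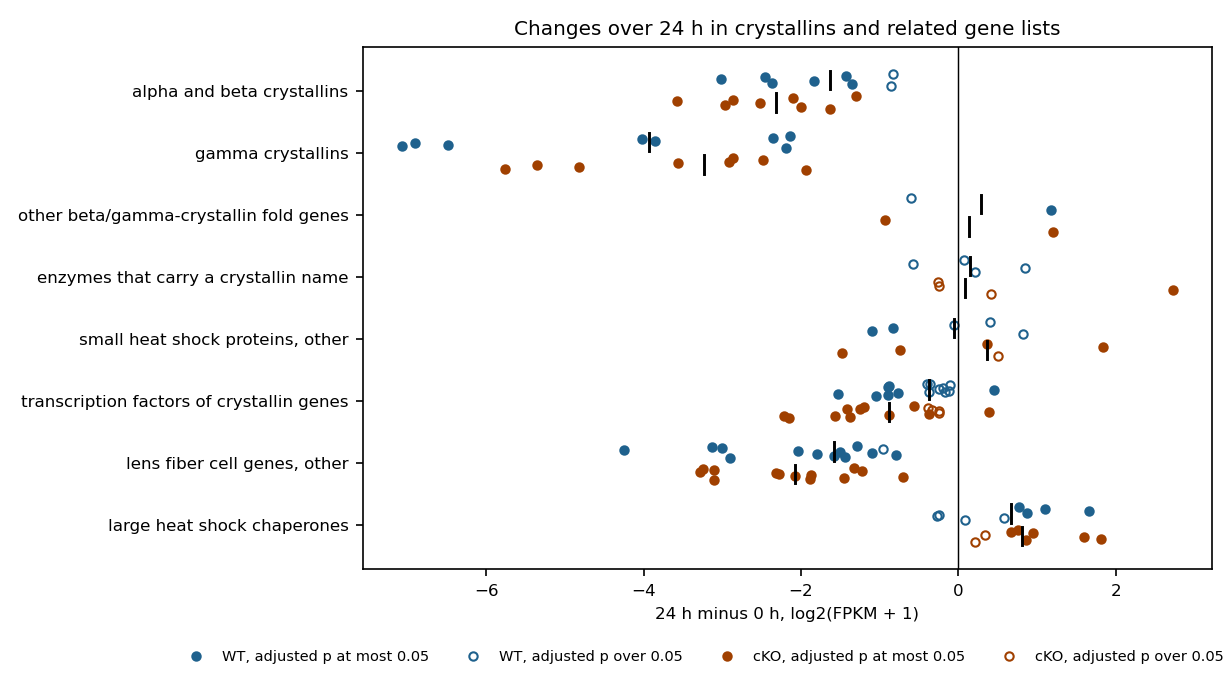
Log2 changes from 0 h to 24 h (x axis) of the tested genes in each list (y axis), for WT above and β8ITG-cKO (cKO) below, filled where the adjusted p was at most 0.05, with a black line at the median. The α- and β-crystallins, γ-crystallins and other fiber genes lie below 0, and the large heat shock chaperones lie mostly above it.

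Across the libraries the 8 genes varied together, with Pearson's r of log2(FPKM + 1) from 0.849 (Cryaa and Crybb3) to 0.996 (Cryba1 and Crybb1) over 11 or 12 libraries, which share the time and genotype groups. Of 4124 genes compared over 12 libraries, those closest to the mean profile of the 6 β-crystallins were Crygs (r = 0.994), Palm2 (0.991), Tmem40 (0.984), Mgarp (0.983) and the lens connexin Gja3 (0.982). Closest to Cryab were Pitx3 (0.991), Prox1 (0.988) and Nap1l4 (0.987), and closest to Cryaa, over 11 libraries, were Mxra7 (0.983), Rab11fip1 (0.981) and Bfsp2 (0.980). Palm2 was at 15.4 to 19.7 FPKM in WT 0 h and 3.22 to 6.18 FPKM in WT 24 h libraries, and Mxra7 at 342 to 390.1 and 168 to 203 FPKM.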

How the data were processed

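The 12 libraries covered LC RNA of both genotypes at both times, 3 for each condition. The authors made stranded total RNA libraries (SMARTer Pico Input kit). The submitters' processing notes name FastQC, cutadapt 1.12, TopHat2 2.1.0, Cuffdiff 2.2.1 and the builds mm10 and GRCm38.p5, with no settings. The authors deposited FPKM per library and gene from Cuffdiff in 4 tables, each for a pair of conditions, with Cuffdiff's group FPKM, fold changes, p-values and q-values, of which only the group FPKM of Cryaa was read. The columns of all 12 libraries were identical between tables. Columns of other samples numbered 0.

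FPKM are not counts. Values were taken as log2(FPKM + 1), and limma 3.58.1 (R 4.3.3, eBayes with trend) was run on the 6 libraries of a comparison. Genes averaging under 0.5 FPKM there were left out, and p-values were adjusted by Benjamini-Hochberg over every gene left. The interaction used 12 libraries. Fold changes are on the log2(FPKM + 1) scale. A listed 0 beside sister libraries both at 100 FPKM or more was treated as missing (11 values). An exact permutation test of 3 against 3 libraries cannot go below p = 0.1 and was not used. The fits were also run on simulated data. Noise there was drawn independently for each gene and library, so effects shared across a library were not covered.

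The members and gene lists were chosen with earlier results of these data known. Named genes are the 8 crystallins, Itgb8, members of lists of γ-crystallins, other βγ-fold genes, crystallin-named enzymes, small and large heat shock proteins, transcription factors, fiber genes and cell type markers, and the genes of highest r. Alternatives covered the pseudocount, the filter, rescaling, listed 0 values, the replicate block, 1 fit over all libraries, the calling criteria and each library left out. The prior spread without trend was added after the data were seen. Positions are from GENCODE vM21. The separate values of some marker genes are not reported here. Python 3.11.15 with pandas 2.3.3 and matplotlib 3.10.9 was used for tables and figures.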

Additional observations from a re-analysis of the deposited data

Results flagged for a closer look

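None of the 8 α- and β-crystallin genes met a rule for a closer look, and groups of 3 libraries were too small to test for an outlying library. The difference between the 24 h changes of the genotypes (β8ITG-cKO change minus WT change, log2) passed in the interaction test of limma for 5 genes of the related lists: 2 of 8 large heat shock chaperones, 1 of 5 small heat shock proteins and 2 of 15 transcription factors, with 0 in the lists of γ-crystallins, other fiber genes, other βγ-fold genes and enzymes. Of all genes tested 6.83% passed with a positive and 2.56% with a negative difference, so the 5 genes are given as values and nothing is read from their number. Without WT 24 h replicate 2, 1 of 8 γ-crystallins and 3 of 15 transcription factors passed with a negative difference. With all libraries the difference was 2.09 for Hspa1a (SE 0.49, adjusted p = 0.023) and 1.85 for Hspa1b (SE 0.37, adjusted p = 0.0118), both genes of inducible Hsp70 chaperones. It was 1.89 for the small heat shock gene Hspb6 (SE 0.41, adjusted p = 0.0163), -0.81 for Maf (SE 0.18, adjusted p = 0.0166) and -0.84 for the transcription factor Sox1 (SE 0.19, adjusted p = 0.0201). At 0 h Hspa1a ran from 5.85 to 7.0 FPKM in β8ITG-cKO and from 10.6 to 17.9 FPKM in WT libraries. Maf at 0 h ran from 65.0 to 72.3 FPKM in β8ITG-cKO and from 40.6 to 46.2 FPKM in WT libraries. Photoreceptor RNA, summed above, was higher in β8ITG-cKO LCs at 24 h, and its part in these values was not tested.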

How the results depend on the processing

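The 8 calls in β8ITG-cKO LCs and the 0 calls between genotypes held with any library left out. Without a filter on low values the β8ITG-cKO calls were 6, with Cryaa at adjusted p = 0.217 and Crybb2 at 0.110. In WT LCs the calls among the 8 genes numbered 3 to 7 with a library left out, and 3 without a filter on low values or with a fold over 4, where β8ITG-cKO LCs gave 5. Without the filter the WT calls of Cryab, Cryba4 and Crybb2 were lost. Over all settings other than a library left out, their highest adjusted p by limma was 0.343, 0.0664 and 0.611. With 1 prior variance for all genes, added after the data were seen, the interaction called 1 gene, Cryaa. With listed 0 values as deposited the WT change of Cryaa was 4.03 and the WT 0 h share of α- and β-crystallins 13.9%. Rescaling to the same median gave -0.0017 for Cryaa at 0 h and -0.057 for both Crybb1 and Crybb3 at 24 h between genotypes. Without the 10 highest other genes the α and β share was 24.5%, 9.99%, 21.6% and 6.90%, and the β share 13.3%, 4.46%, 11.4% and 3.11%, in WT 0 h, WT 24 h, β8ITG-cKO 0 h and β8ITG-cKO 24 h.

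With a library left out, differences between genotypes at 0 h ran from -0.016 to 0.197 for Cryaa, -0.012 to 0.217 for Cryba2 and -0.195 to 0.097 for Crybb2. Cryaa has 2 WT values at 0 h, and leaving out either leaves no spread in that group, so its range gives effect sizes only. At 24 h they ran from -0.661 to 0.060 for Cryba1, -1.162 to 0.258 for Cryba4, -0.483 to 0.354 for Crybb1 and -0.159 to 0.209 for Crybb3. The cause was not tested.

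Over all genes, the 2163 calls over time in WT became 4503 by adjusted p alone and 660 with a fold over 4, and the 2295 in β8ITG-cKO LCs became 7038 and 900. The 374 calls at 0 h became 131 without the filter, 1033 by adjusted p alone and 102 with a fold over 4, and 134 to 385 with a library left out. The 562 at 24 h became 968 and 342, and 370 to 641. The 1433 of the interaction became 937 with a filter at a mean of 2 FPKM, and 698 to 1927 with a library left out.

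Deviations of libraries with the same replicate number correlated at -0.204 to 0.0797 over 12 pairs, so the numbers were not taken to pair libraries. With the replicate block the WT calls among the 8 genes were 4, with Cryab at adjusted p = 0.0531 and Crybb2 at 0.131, and the calls at 0 h over all genes were 226.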

Other observations

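Markers of other cell types, which enter no comparison above, were also summed. Macrophage markers summed to 8.3 to 16.8 FPKM in the 0 h and 21.4 to 42.1 FPKM in the 24 h libraries. Lyz2 led them on average, but in WT 24 h replicate 3 it was below Cd68 (4.26 against 9.03 FPKM). In WT the log2 change was 2.53 for Cd68 and 1.13 for Lyz2, but -0.12 for Csf1r, -0.40 for C1qa and -0.13 for C1qb. Cd68 alone was called there. In β8ITG-cKO LCs Cd68, Lyz2 and C1qa were called higher, beside 11.3% of all genes. Corneal epithelial markers, almost all Aldh3a1, summed to 212 to 271 FPKM in WT 0 h, 156 to 447 in WT 24 h, 539 to 920.5 in β8ITG-cKO 0 h and 140.5 to 192 in β8ITG-cKO 24 h libraries. Of the same list, Krt12 was at most 4.62 and Krt14 at most 2.12 FPKM in any library. Corneal stroma markers, almost all Ptgds, summed to 425 to 981 FPKM over the 12 libraries. The others of that list were low or at 0, with Kera at most 0.13, Lum at most 0.30 and Dcn at most 2.78 FPKM. Iris and ciliary pigment markers, led by Dct, summed to 11.5 to 83.8 FPKM over the 12 libraries. Markers of other retinal cells, led by Apoe, summed to 656 to 1974 FPKM over the 12 libraries. Of 7 tested, 5 were called higher at 24 h in β8ITG-cKO LCs, beside 11.3% of all genes. In WT 1 was called lower, beside 3.93%. At 24 h Pcp2 and Calb2 were called higher in β8ITG-cKO than in WT LCs, 2 of 7 beside 3.37% of all genes. Their part in the crystallin values was not tested.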
